A study of Delphinium anthriscifolium with 89 samples.

Results

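The 48 features described here were high in both the stamens and the carpels of Delphinium anthriscifolium, a larkspur of the buttercup family, and low in its leaves, bracts, sepals and petals. They were chosen from 32115 assembled transcript features by their measured values in wild-type libraries. Each count was divided by its library total and multiplied by 1000000 (CPM), and the value of a group was its median CPM plus 1. The value of an organ was that of its highest stage. A feature was kept where the stamen and carpel values lay within 3-fold of each other and the lower was at least 6 and at least 3-fold above every other organ. All 48 that passed were kept, since the cap of 200 was not reached. The list depends on these settings: 25 of the 48 passed with the mean over stages in place of the highest stage, 32 with TMM scaling of the library totals, and 26 when either the first or the second library of every group was left out. The files do not pair their assembly IDs with gene names, so each feature is called by its ID, with the reading-frame suffix left off, and no function is given to any.

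Bulk RNA was sequenced in 89 libraries, of which 85 were wild type in 30 groups. Stamens, carpels, 2 petal types (dorsal spurred, lateral non-spurred) and 3 sepal types (dorsal spurred, lateral non-spurred, ventral non-spurred) were each sampled at floral stages S9 (n = 2), S10, S12 and S16 (n = 3 each). Leaves and bracts, taken below S9 buds, had 4 libraries each. The remaining 4 libraries came from plants treated by virus-induced gene silencing, in which a modified virus makes a plant degrade the RNA of a chosen gene: 2 of ans-lmi1 plants and 2 of ans plants, which the file headers call mock. The labels do not expand ans. LMI1 is, in Arabidopsis, a homeobox gene of leaf form and meristem identity. The labels of these 4 libraries name lateral non-spurred sepals as the tissue, while the design text speaks of petals at S12, and the second ans-lmi1 library is labelled with LMI2. The organ of these 4 libraries and the gene silenced in that one are therefore uncertain. No label says whether replicates are different plants, and the p-values below therefore cover the spread among the libraries at hand, which may be technical.

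Stamens make pollen, and carpels enclose the ovules that become seeds after fertilisation. They are the reproductive organs of the flower, and both carry cells that go through meiosis. In Arabidopsis, the MADS-box gene AGAMOUS is needed for both organs, and stamens also need organ identity genes that carpels do not.

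Library totals were between 4201867 and 22100119 counts, and between 4944386 and 13292619 in the 22 stamen and carpel libraries. A count of 3 was worth between 0.136 and 0.714 CPM, and such limits cover counting error only. Libraries differed in how many features they held, between 9877 and 23297 with at least 1 count. Of the wild-type libraries, 21 held fewer than 19000 features and are called sparse below. They include both S9 stamen libraries, the first S10 and the third S16 stamen library, the first and the third S10 carpel library, and the third S16 carpel library. The third S16 stamen library was the sparsest of these 7, with 11345 features. In each petal and sepal type, too, the third S16 library was sparse. With no gene names, the labelled organs could not be checked against known marker genes.

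The 48 features were rare among transcripts of both reproductive organs. Of the 12917 features whose stamen and carpel values were both at least 6 and within 3-fold of each other, they made up 0.372%. Without the limit on the spread between the organs, 69 features stood at least 3-fold above all other organs in both. The 21 left out by that limit were higher in stamens in 14 cases and higher in carpels in 7. Stamens taken alone, against all organs but carpels, gave 1633 such features, and carpels alone, against all but stamens, gave 189. These counts follow from the choice of features and carry no test.

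Stamen values lay between 6.86 and 801.2 with a median of 44.7, and carpel values between 6.46 and 546.2 with a median of 30.0. The stamen value was the higher in 26 features and the carpel value in 22, and the organs lay within 1.5-fold of each other in 23. In 10 features the lower of both organs was at least 100, and in 16 it was under 20. The ratio of that lower value to the next organ had a median of 4.55. It was at least 10 in 10 features, at least 5 in 22 and under 4 in 22, so as many lay under 4 as at 5 or more. The next organ was a petal type in 24 features (dorsal petals in 16, lateral petals in 8) and a sepal type in 20. It was leaves in 2, and in a further 2 features no other organ had a median above 0. Bracts were the next organ of none of the 48.

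Just inside the ratio limit lay DN48738_c1_g2_i2, with values of 79.1 in stamens and 68.6 in carpels against 22.9 in lateral petals, a ratio of 3.002. Just outside it lay DN47960_c1_g5_i1, an abundant feature with values of 1109 in stamens and 888.4 in carpels against 305.9 in its next organ, a ratio of 2.90. The limit on spread kept DN45772_c6_g1_i3 at 2.91-fold between the organs and left out DN44942_c3_g2_i1 at 3.19-fold. The limit on level kept DN46426_c0_g1_i2, with a carpel value of 6.46, and left out DN42919_c0_g1_i3, with a stamen value of 5.16.

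**Figure D1:**
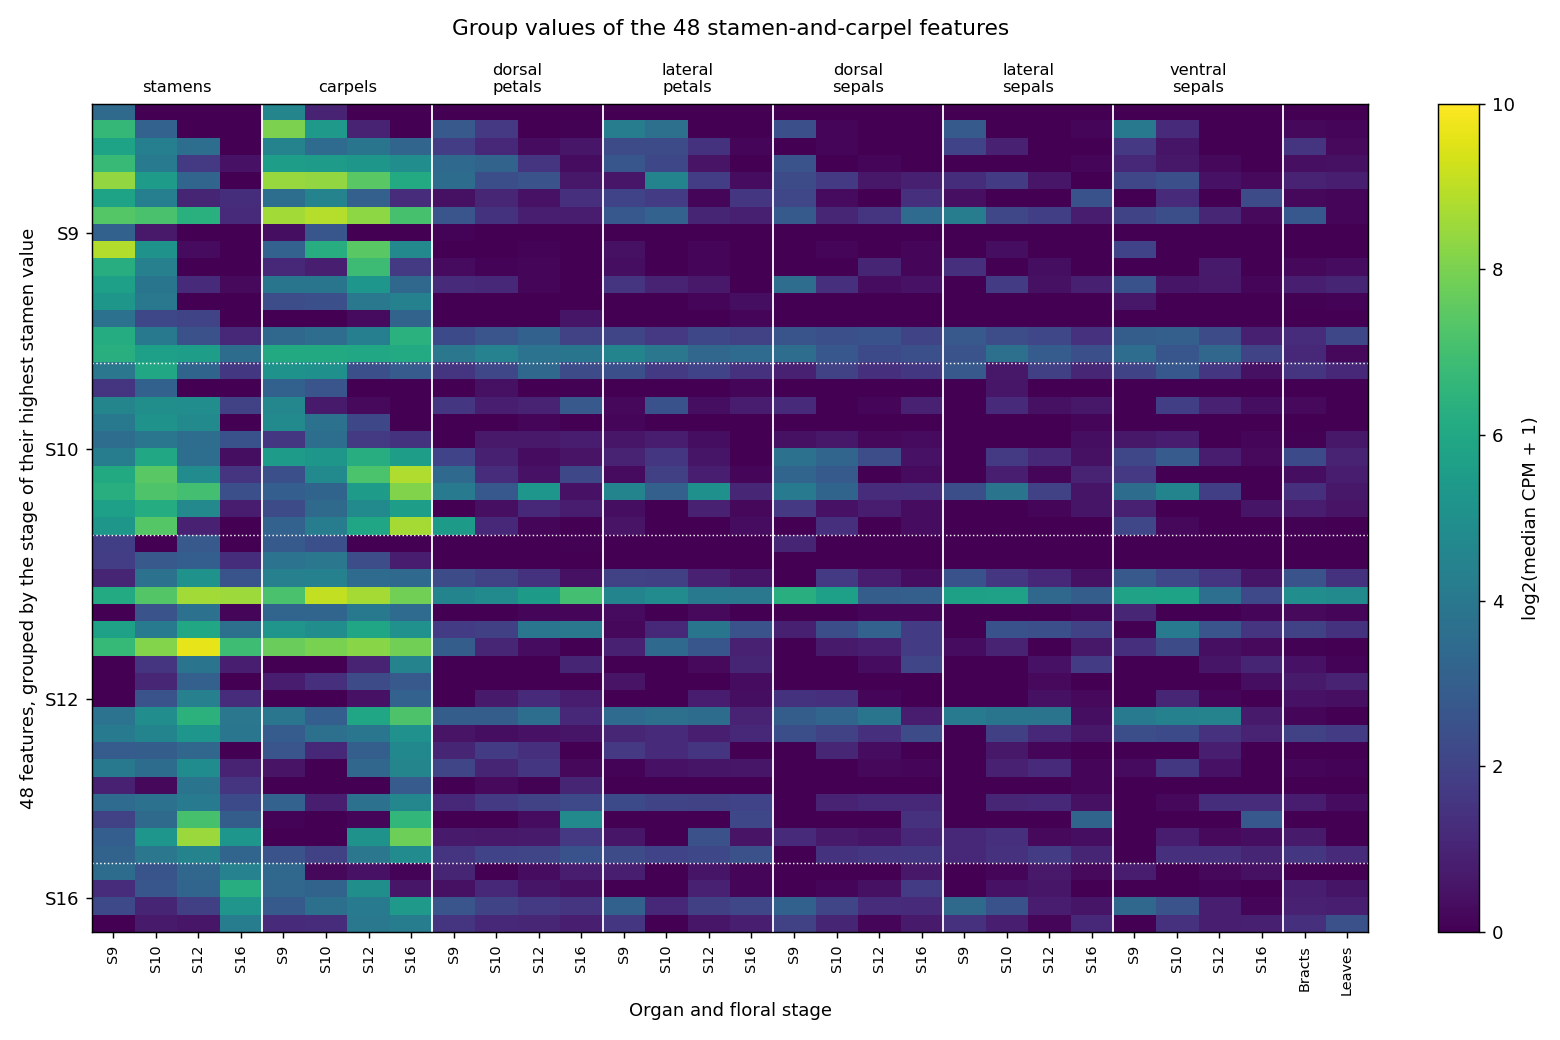
Group value of each of the 48 features, as log2 of median CPM plus 1 (colour), by organ and stage (columns). Rows are grouped by the stage of the highest stamen value, and stamens and carpels are at the left. Most rows are bright at some stages of each reproductive organ and dark at others, and few are bright across all 8 stamen and carpel groups.

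Summed over the 48 features, the level was at least 750.4 CPM in each of the 22 stamen and carpel libraries and at most 305.6 CPM in each of the 63 other wild-type libraries. The rule chose the features for a difference of this kind in these same libraries. The sums and the counts of features in this paragraph therefore carry no test. The lowest sum in a reproductive organ was that of the first S16 stamen library. The highest elsewhere was in the third S16 library of dorsal sepals, a sparse library. Single features were less clear-cut. In 35 of the 48, the lowest library of both peak groups, stamen and carpel, was above every library of every other organ. The highest library outside stamens and carpels was a sparse one in 28 features, although 14 of the 63 libraries there were sparse. In 12 features a peak group had libraries at least 5-fold apart, and in 21 a peak lay at S9, which had 2 libraries. An example is DN38844_c0_g1_i1, with 10.96 and 512 CPM in S9 carpels. Its carpel value thus rests mainly on the second library.

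**Figure D2:**
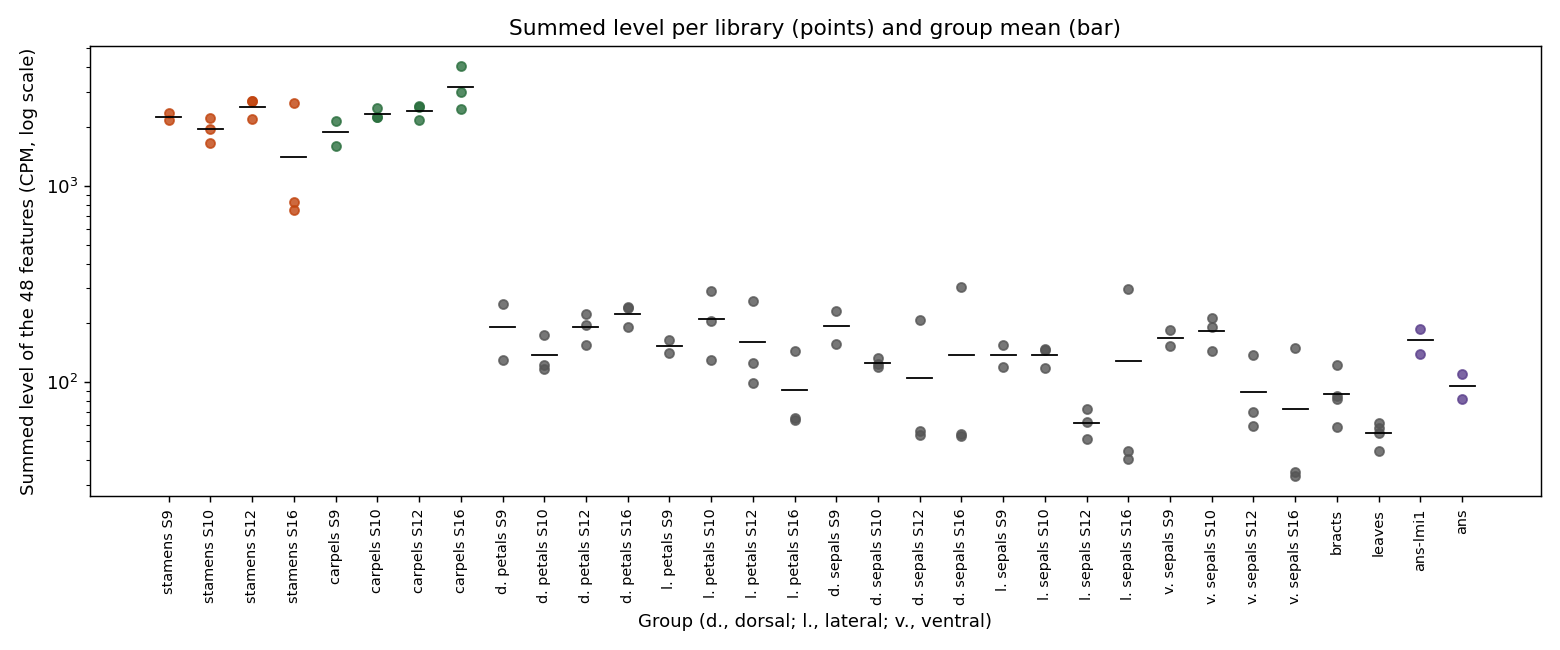
Summed level of the 48 features in each library (points, CPM on a log scale) and the group mean (bars). All 22 stamen and carpel libraries lie at 750.4 CPM or more, and the other wild-type libraries at 305.6 CPM or less. The features were chosen for such a difference in these same wild-type libraries. The 4 silencing libraries are at the right.

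The 2 features farthest above the next organ were DN36539_c0_g1_i1, with a ratio of 42.4, and DN46920_c3_g3_i1, with 39.9. DN36539_c0_g1_i1 had 641 and 272 CPM in S9 stamens, 216, 24.5 and 33.3 CPM at S10, 0.0888, 0.213 and 1.49 CPM at S12, and no count at S16. In carpels it had 9.54 and 6.21 CPM at S9, 176, 74.9 and 66.9 CPM at S10, 175, 129 and 170 CPM at S12, and 25.4, 20.1 and 67.1 CPM at S16. It was thus an early transcript of stamens and a middle-stage transcript of carpels. DN46920_c3_g3_i1 had 361, 373 and 239 CPM in S12 stamens, its stamen peak, and 37.6, 69.3 and 31.8 CPM at S16. In carpels it had 62.7, 24.2 and 34.5 CPM at S12 and 222, 226 and 173 CPM at S16, and no count in 4 of the 5 libraries of S9 and S10. The carpel peak of this feature therefore came at a later stage than its stamen peak.

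By the lower of both organs, the 2 most abundant features were DN48791_c3_g2_i2 and DN44367_c0_g3_i1. DN48791_c3_g2_i2 had 393, 319 and 470 CPM in S12 stamens and 531, 545 and 609 CPM in S10 carpels, the peak of each organ by median. In S16 stamens it had 309, 368 and 2239 CPM, the last in the third library, which is sparse. It was also the most abundant of the 48 outside the reproductive organs, with a value of 129.8 in dorsal petals, so its ratio was only 3.04. DN44367_c0_g3_i1 began at similar levels in both organs, with 270 and 387 CPM in S9 stamens and 337 and 369 CPM in S9 carpels. At S16 it had 0, 0.102 and 0 CPM in stamens, against 68.5, 56.5 and 114 CPM in carpels.

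DN48337_c0_g1_i5 was the only one of the 48 at least 3-fold above its next organ in all 8 stamen and carpel groups, and it is named for that after its values were seen. It had 116 and 89.4 CPM in S9 stamens, 274, 326 and 279 CPM at S10, 800, 1019 and 518 CPM at S12, and 120, 117 and 19.5 CPM at S16. Its carpel levels were flatter, with a lowest library of 150 CPM and a highest of 308 CPM over all 11. Another feature of the same assembly gene, DN48337_c0_g1_i1, had values of 75.2 in stamens, 86.4 in carpels and 74.7 in dorsal petals. Reads can be shared between features of an assembly gene, so the values of DN48337_c0_g1_i5 are uncertain. Only 4 of the 48 were above the next organ in all 8 groups. Both organs were above the next organ together at 3 of the stages in 7 features, at 2 in 20 and at 1 in 11. In the remaining 6 they were so at no single stage, and the stamen and carpel levels that chose them came from different stages.

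Among the 48 features, the organs differed more at S16 than at S9. These values were part of the choice of the features, so the numbers that follow are a description. They were not set beside those of all features, and the third S16 stamen library is sparse. The median group value over the 48 was 15.99, 15.8, 12.1 and 2.38 in stamens at S9, S10, S12 and S16, and 8.87, 10.3, 15.4 and 21.8 in carpels. Stamens and carpels lay within 3-fold of each other in 27 features at S9, 25 at S10, 21 at S12 and 19 at S16. The stamen value was more than 3-fold the carpel value in 16, 16, 12 and 3 features at these stages, and the carpel value more than 3-fold the stamen value in 5, 7, 15 and 26. In these bulk samples, fewer cells of a type and less RNA per cell cannot be told apart.

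Stamen values were highest at S9 in 15 features, at S10 in 10, at S12 in 19 and at S16 in 4. These were 31.25%, 20.8%, 39.6% and 8.33% of the 48, beside 29.6%, 17.4%, 26.8% and 26.3% of the 12917 features described above. Carpel values were highest at S9 in 11 features, at S10 in 7, at S12 in 8 and at S16 in 22. These were 22.9%, 14.6%, 16.7% and 45.8% of the 48, beside 26.2%, 22.1%, 21.0% and 30.7% of the 12917. Both organs peaked at the same stage in 11 of the 48, or 22.9%, beside 33.3% of the 12917 features that were at least 6 and within 3-fold in both organs. A stamen peak before S16 with a carpel peak at S16 was found in 20 features, or 41.7%, beside 18.9% of the 12917. The most frequent pair was a stamen peak at S12 with a carpel peak at S16, in 12 features. Its share of the 12917 was not counted. The highest stage was 17.6-fold the lowest in stamens and 8.47-fold in carpels, as medians over the 48 of group values. The same medians over the 12917 features were 2.87 in stamens and 1.84 in carpels. Since an organ was given the value of its highest stage, features that vary with stage may have been favoured, and no test is attached to these ranges.

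**Figure D3:**
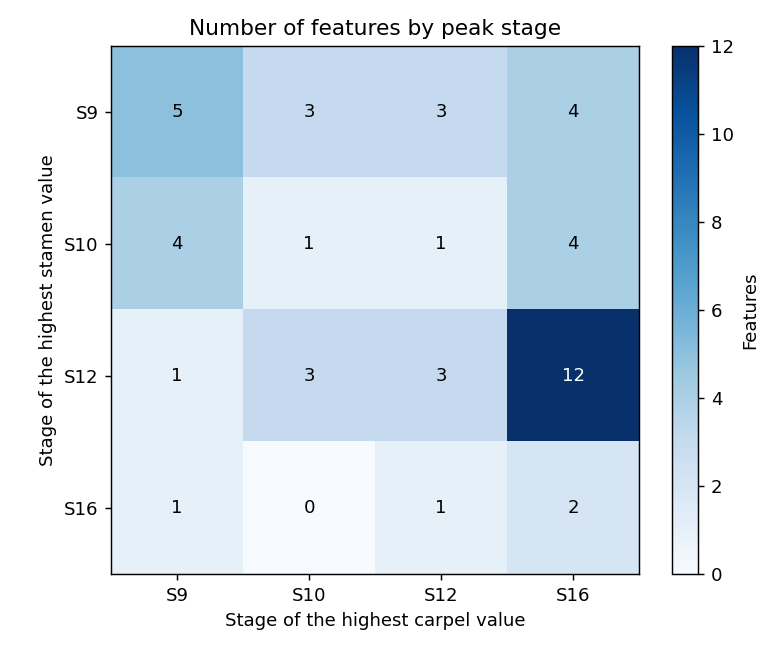
Number of the 48 features by the stage of the highest stamen value (down) and the stage of the highest carpel value (across). The fullest cell, with 12 features, is a stamen peak at S12 with a carpel peak at S16.

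The steps between S10, S12 and S16 were fitted to the same libraries that chose the features. The rule did not use which stage was highest, but by taking each organ's highest stage it may favour features that vary with stage. The numbers of the 48 called are therefore a description: they stand beside the percent called of all features, and nothing is read from the difference. The p-values of single features are a description too. They do not allow for that choice of features, nor for naming the largest called differences. The same holds for the petal and sepal steps, since low levels there were part of the rule. One edgeR quasi-likelihood model was fitted to the 22 stamen and carpel libraries, and all 48 features were among the 21660 tested. Calls are at a Benjamini-Hochberg adjusted p under 0.05 over all features tested. In stamens, 7 of the 48 fell at S12 relative to S10 and none rose, where 2.32% of all features fell and 1.11% rose. The median log2 difference over the 48 was -0.01, beside 0.08 over all features tested. The median was -0.03 with features without counts in 1 group set at their bound. In all, 15 were higher and 11 lower at S12 with no overlap between libraries, where 15.6% and 11.5% of all features were. The count of 7 was 3 without the first S12 stamen library and 4 without the second. No share of all features is given for these fits. Without the sparse libraries, 24 were called, 11 higher and 13 lower, where 8.40% of all features were higher and 10.1% lower.

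DN39791_c0_g1_i2 had no count in the 3 S12 stamen libraries, against 34.8, 15.2 and 10.5 CPM at S10. It was at least 173-fold lower at S12, against a floor of 3 counts over the group (edgeR adjusted p = 0.000442), and it had no count at S16 either. DN47960_c1_g4_i1 had 0.888, 1.06 and 0.892 CPM in S12 stamens, against 210, 166 and 138 CPM at S10, a difference on the log2 scale of -7.48 ± 1.15 (SE; edgeR adjusted p = 0.000754). Both features were present in carpels at S12 and S16. DN39791_c0_g1_i2 had 15.2, 11.1 and 21.4 CPM in S12 carpels and 20.1, 14.4 and 109 CPM in S16 carpels. DN47960_c1_g4_i1 had 49.0, 57.5 and 82.7 CPM in S12 carpels and 447, 263 and 406 CPM in S16 carpels. The IDs do not say what either encodes.

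The step to the latest stage brought the most calls among the 48 in stamens. At S16 relative to S12, 18 fell and 2 rose, where 7.57% of all features fell and 4.14% rose. The median log2 difference was -2.39 over the 48, or -2.45 with features without counts in 1 group set at their bound, and -0.28 over all features. Scaling by library totals alone shifted the median of all features by -0.18. In 33 of the 48, all S16 stamen libraries lay below all S12 libraries, where 31.8% of all features did, and in 4 all lay above, where 11.5% did. Without the sparse libraries, which leaves 2 libraries at S16, 32 fell and 3 rose, where 20% and 16% of all features did. The 18 features that fell here and the 7 that fell at the earlier step shared 2, so 23 of the 48 fell at 1 step or both.

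DN58522_c0_g1_i1 and DN33247_c0_g1_i1 had no count in S16 stamens. The first had 17.9, 37.6 and 26.8 CPM at S12, and was at least 222-fold lower at S16 (edgeR adjusted p = 0.00124). It had no count in S16 carpels either, after 30.9 and 21.6 CPM in S9 carpels, where it was highest. The second had 7.28, 10.3 and 6.99 CPM at S12, and was at least 68.5-fold lower at S16 (edgeR adjusted p = 0.00657). In S16 carpels it had 6.25, 5.87 and 3.80 CPM.

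The 2 features that rose in S16 stamens were DN46485_c0_g1_i2 and DN44817_c4_g1_i2, which also peaked at S16 in carpels. DN46485_c0_g1_i2 had 17.7, 16.9 and 18.9 CPM at S16, against 0.533, 0.639 and 0 CPM at S12, a difference on the log2 scale of 5.60 ± 1.45 (SE; edgeR adjusted p = 0.0134). That call is lost when any 1 of the S12 stamen libraries is left out, with edgeR adjusted p between 0.0504 and 0.063. DN44817_c4_g1_i2 had 46.0, 35.7 and 18.3 CPM at S16, against 2.84, 1.71 and 2.68 CPM at S12, a difference on the log2 scale of 3.96 ± 0.89 (SE; edgeR adjusted p = 0.00451). In both, the S16 and S12 libraries did not overlap.

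Carpels gave few calls by the same model, among the 48 and among all features. At S12 relative to S10, none of the 48 passed the edgeR test, where 0.0600% of all features did in either direction. At an unadjusted p under 0.05, 18 of the 48 did, where 9.64% of all features did, and DESeq2 called 7, of which 3 were higher and 4 lower, where it called 1.70% of all features. The median log2 difference was 0.60 over the 48, or 0.58 with bounds, and 0.18 over all features. The edgeR count was 2 without the second S10 carpel library, with no share of all features given for that fit. At S16 relative to S12, 1 feature rose and none fell, where 0.0646% of all features rose and 0.0139% fell. Here 17 of the 48 had an unadjusted p under 0.05, where 4.71% of all features did, and DESeq2 called 3 higher and 3 lower, where it called 1.05% of all features. The median log2 difference was 0.32, or 0.42 with bounds, beside -0.04 over all features. Scaling by library totals alone shifted the median of all features by -0.11.

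In carpels at S16, 15 features were above S12 with no overlap between libraries, where 6.51% of all features were, and 10 were below, where 16.9% were. Without the sparse libraries the edgeR count at this step was 20, with 12 higher and 8 lower, where 2.29% of all features were higher and 1.27% lower. At the earlier step it was 5, of which 2 were higher and 3 lower, where 1.20% of all features were called. That fit keeps 1 S10 carpel library, whose spread is taken from the other groups.

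The feature that rose in S16 carpels was DN46815_c0_g1_i1. It had 98.3, 59.1 and 170 CPM at S16, against 0.0981, 0.157 and 0 CPM at S12, which are 3 counts in all. The ratio was 986, with a 95% counting interval between 337 and 4785 (edgeR adjusted p = 0.0104). Leaving out any 1 of the S12 carpel libraries ended the call, with edgeR adjusted p between 0.106 and 0.122. In stamens it was highest at S12, with 400, 134 and 26.2 CPM, a spread too wide for its stamen peak to clear every other library. Outside the reproductive organs it also appeared at S16, with 26.2, 34.7 and 10.9 CPM in dorsal petals and no count in their S9 and S10 libraries. At S12 it had 8.60 CPM in the first dorsal petal library and 12.6 CPM in the second lateral petal library. Lateral sepals had 9.28, 7.65 and 8.29 CPM at S16, and ventral sepals 6.36, 5.79 and 0 CPM.

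**Figure D4:**
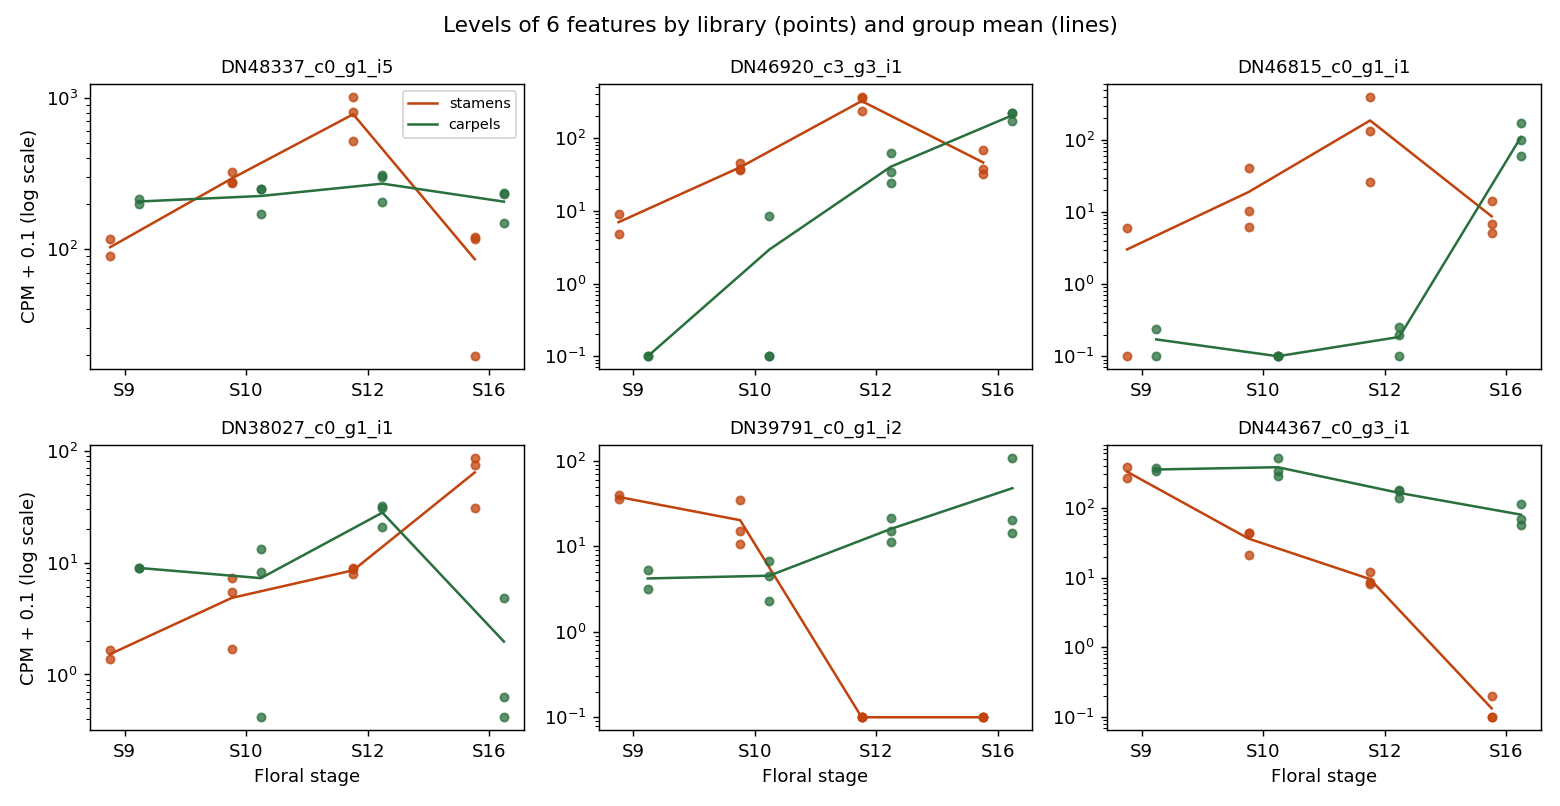
Levels of 6 features in stamens and carpels by stage, as single libraries (points) and group means (lines), in CPM plus a small offset on a log scale. DN48337_c0_g1_i5 is high in all 8 groups, DN46920_c3_g3_i1 and DN46815_c0_g1_i1 peak at S12 in stamens and S16 in carpels, DN38027_c0_g1_i1 peaks at S16 in stamens and S12 in carpels, and DN39791_c0_g1_i2 and DN44367_c0_g3_i1 are nearly or wholly absent from S16 stamens and present in carpels.

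Whether a step differed between the organs was tested as the stamen step minus the carpel step in the same model. For S12 relative to S10, the stamen step was the lower in 5 of the 48 and the higher in none, where 0.328% and 0.115% of all features were called. The count of 5 was 3 without any 1 of 5 libraries, which were the first and the third of S12 stamens, the third of S10 carpels, and the first and the third of S12 carpels. No share of all features is given for these fits. The count was 13 without the sparse libraries, where 4.07% of all features were called. For S16 relative to S12, the stamen step was the lower in 15 and the higher in 1, where 3.55% and 1.49% of all features were called. The median difference of steps was -3.14 on the log2 scale over the 48 and -0.23 over all features. Without the sparse libraries 29 were called, 25 lower and 4 higher, where 21.0% of all features were called. Of the 15 with the lower stamen step, 11 were also called lower in S16 stamens. The single feature with the higher stamen step was DN38027_c0_g1_i1, with 86.3, 74.0 and 30.8 CPM in S16 stamens, against 8.70, 8.84 and 7.73 CPM at S12. Its carpel levels were 0.321, 0.527 and 4.75 CPM at S16, against 32.0, 30.7 and 20.7 CPM at S12. The difference of steps was 6.84 ± 1.47 on the log2 scale (SE; edgeR adjusted p = 0.00703), and in neither organ did the S16 and S12 libraries overlap.

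**Figure D5:**
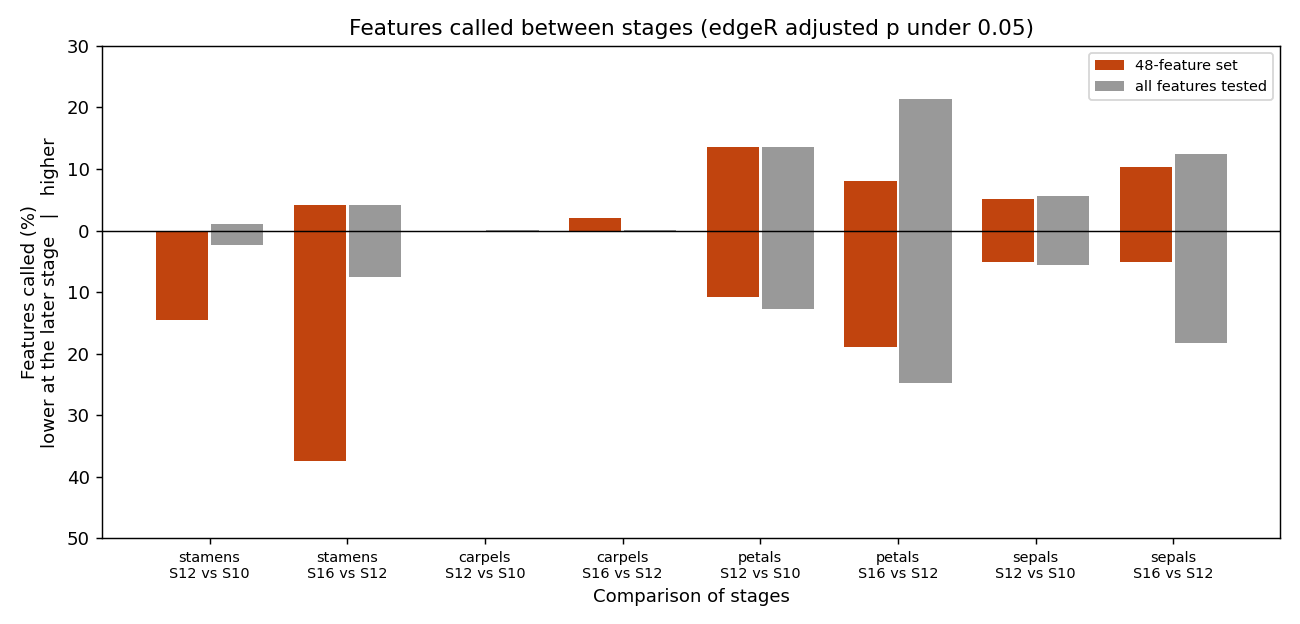
Percent of features called higher (up) or lower (down) at the later stage by edgeR at an adjusted p under 0.05, for those of the 48 that were tested and for all features tested. In stamens 18 of the 48 fell at S16 relative to S12, beside 7.57% of all features, and in petals 3 rose and 7 fell at that step, beside 21.4% and 24.8%.

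In petals most of the 48 features were low. The median library of a petal group had a median over the 48 between 0.2615 and 0.8435 CPM. Between 2 and 12 features had a group median of at least 5 CPM. Of the 48, 37 passed the filter on low counts. Over both petal types, 5 rose and 4 fell at S12 relative to S10, where 13.5% and 12.8% of all features did. At S16 relative to S12, 3 rose and 7 fell, where 21.4% and 24.8% of all features did. Scaling by library totals alone shifted the median of all features at that step by -0.39. With that scaling 2 rose and 9 fell, where 15.3% and 36.8% of all features did. The count of 9 at S12 was 5 without the first S12 library of dorsal petals or the second of lateral petals. No share of all features is given for these fits.

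DN46476_c0_g2_i1 rose at S12 in petals, with 39.4, 7.95 and 14.3 CPM in dorsal petals at S12, against 2.76, 3.03 and 0.0654 CPM at S10. Lateral petals had 12.2, 26.4 and 13.7 CPM at S12, against 1.18, 2.67 and 1.01 CPM at S10. The log2 difference over both types was 3.42 ± 0.64 (SE; edgeR adjusted p = 0.000481). In carpels too this feature was highest at S12, with 91.1, 57.9 and 39.1 CPM. DN38844_c0_g1_i1 fell at S12, where 1 count was left in dorsal and 2 in lateral petals, against 1.61, 2.14 and 8.11 CPM at S10 in dorsal and 11.8, 5.75 and 16.7 CPM in lateral petals. It was 221-fold lower in dorsal petals, with a 95% counting interval between 39.2 and 8793, and 193-fold lower in lateral petals, with an interval between 52.7 and 1600 (edgeR adjusted p = 1.35e-05). DN41631_c0_g1_i1 fell at S16, with 0.370, 0.407 and 2.24 CPM in dorsal petals, against 36.5, 37.6 and 42.0 CPM at S12. In lateral petals it had 1.61, 1.13 and 0 CPM at S16, against 38.2, 21.7 and 31.6 CPM at S12, and the log2 difference over both was -4.77 ± 0.61 (SE; edgeR adjusted p = 1.65e-06). Its stamen levels were low at S16 too, at 4.62, 4.49 and 0 CPM, while S16 carpels had 277, 246 and 301 CPM.

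Dorsal petals were also compared with lateral petals, the spurred with the non-spurred type. No feature of the 37 passed the edgeR test at S10, S12 or S16, where 0.563%, 1.73% and 5.82% of all features did. An unadjusted p under 0.05 was found for 4, 1 and 7 of them, where it was found for 7.55%, 8.50% and 17.3% of all features. DESeq2 called 0, 0 and 4, where it called 1.91%, 3.60% and 10.3% of all features. At S16, 8 of the 37 were higher in dorsal petals with no overlap between libraries, where 12.7% of all features were, and 0 were lower, where 7.92% were. The third S16 library is sparse in both petal types, with 18190 features in dorsal and 14692 in lateral petals. Without the third lateral library edgeR called 1, with no share of all features given.

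In sepals 39 of the 48 passed the filter. Over the 3 types, 2 rose and 2 fell at S12 relative to S10, where 5.64% and 5.60% of all features did. Without the sparse libraries 1 rose and 10 fell of the 32 tested, where 20.1% and 18.1% did. At S16 relative to S12, 4 rose and 2 fell, where 12.4% and 18.2% did. Scaling by library totals alone shifted the median of all features by -0.18 at S12 and by -0.21 at S16. At S12 it left the members' counts at 2 and 2, where 4.15% and 7.63% of all features were higher and lower. DN43556_c0_g1_i2 rose, with 0.681, 1.55 and 6.64 CPM in dorsal, 4.78, 3.83 and 17.3 CPM in lateral and 3.89, 1.04 and 9.88 CPM in ventral sepals at S16, against no count in any of the 9 libraries at S12. It was at least 24.3-fold higher in dorsal, 67.4-fold in lateral and 39.4-fold in ventral sepals (edgeR adjusted p = 3.62e-05). Within each type its highest S16 library was the third, and each of these 3 libraries was sparse. In stamens and carpels this feature was early, with 50.9 and 60.0 CPM in S9 stamens and 21.4 and 23.5 CPM in 2 of the 3 S10 carpel libraries.

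In the silencing libraries 21 of the 48 passed the filter, and their summed level over all 48 was 187.0 and 138.3 CPM in ans-lmi1, against 109.3 and 81.6 CPM in ans. No feature was called by edgeR among the 21 or among the 18757 tested, a background of 0%. At an unadjusted p under 0.05 there were 5 of the 21, all higher in ans-lmi1, where 7.32% of all features were in either direction. The fitted difference was above 0 in 19 and below 0 in 2, with a median of 0.73 on the log2 scale beside 0.01 over all features. In 12 of the 21, both ans-lmi1 libraries were above both ans libraries, where 18.4% of all features were, and in 0 both were below, where 21.2% were. DESeq2 called 1 of the 21 where it called 0.650% of all features. That was DN38027_c0_g1_i1, named for it after its values were seen, with 6.04 and 2.19 CPM in ans-lmi1, against 0.241 and 0.378 CPM in ans, a log2 difference of 3.74 ± 0.96 (SE; DESeq2 adjusted p = 0.0191).

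A pair of features described above were far higher in the first ans-lmi1 library than in the second. DN48337_c0_g1_i5 had 61.3 and 6.95 CPM in ans-lmi1, against 3.94 and 3.10 CPM in ans, and DN46920_c3_g3_i1 had 10.4 and 0.861 CPM, against 0.562 and 0.303 CPM. Their edgeR adjusted p were 0.652 and 0.658. Without the second ans-lmi1 library edgeR called 2 of the 26 then tested, where 0.442% of all features were called. That fit keeps 1 ans-lmi1 library, whose spread is taken from the 2 ans libraries alone. All 4 libraries lay far below the 750.4 CPM of the lowest stamen or carpel library.

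Among assembly IDs, the 48 features came from 47 assembly genes, of which DN42919_c0_g1 gave 2. An assembly gene with more than 1 feature held 9 of the 48, or 18.8%, beside 29.3% of all features. Reads can be shared between such features, so the values of these 9 are uncertain. They had 12 partner features, of which 9 reached a value of 6 in some organ. Stamens or carpels were the highest organ of 8 of these 9, beside 43.8% of all features that reached 6. Summed per assembly gene, 43 of the 47 still met the rule, and 4 of the 8 with several features did. For DN46426_c0_g1, the partner DN46426_c0_g1_i7 had values of 101.9 in stamens and 6.12 in carpels, where the kept DN46426_c0_g1_i2 had 8.71 and 6.46. The kept feature was thus a minor one of an assembly gene that was mainly of stamens.

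Stamens and carpels adjoin in the flower, and for features high in at least 1 of them the level in the other was also taken. Of 786 features with a stamen value of at least 100 that were at least 3-fold above the 7 organs other than carpels, the carpel level was 4.18% of the stamen level in the median and under 1% in 249. In the other direction, 40 features high in carpels had a median stamen level of 15.3% of the carpel level. Neither choice set a limit on the other organ, so features high in both could enter. The level in the other organ was 33% or more in 38 of the 786 and in 13 of the 40. What part RNA of 1 organ in libraries of the other had in single low levels was not tested.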

How the data were processed

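Per the labels, total RNA came from TIANGEN's RNAprep Pure Plant Kit, and libraries from version V2 of the Fast RNA-seq Lib Prep Kit. The deposited values are expected counts per feature, not normalized; TopHat2 and RSEM are named in the submitters' processing notes, without versions. The sources used here do not give the reference, annotation or strand setting. The members, lists and tests were chosen with earlier results of these data known. Groups follow the sample titles.

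Counts were rounded for tests. edgeR 4.0.16 in R 4.3.3 (quasi-likelihood, robust, TMM, filterByExpr) fitted 1 mean per group to 22 stamen and carpel, 22 petal, 33 sepal and 4 silencing libraries, testing 21660, 21834, 21673 and 18757 features. The biological coefficient of variation, as edgeR's common estimate, was 0.75, 0.47, 0.72 and 0.27 in these sets. SE is the log2 difference divided by the square root of F. Steps in petals and sepals are means over the types. DESeq2 1.42.0 was an alternative. The model was also run on simulated counts. These had the same spread for all features and did not imitate the sparse libraries, so nothing is read from that run here. Bounds use a floor of 3 counts over the group. All CPM values use column totals.

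Named features are the 2 most abundant, the 2 with the largest ratio, those beside each limit, and in each comparison the largest called differences with at least 1 CPM and no overlap (2 each way for stamen and carpel steps, otherwise 1). For dorsal against lateral petals, same-numbered libraries deviated together at S10 (r between 0.16 and 0.32 over 3 pairs) and S16 (between 0.20 and 0.35), and a replicate block left 0 features called.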

Additional observations from a re-analysis of the deposited data

Results flagged for a closer look

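Some stage steps of the 48 were called different between stamens and carpels by the test of the difference itself (edgeR, 22 libraries, the same that chose the features). It called 5 of the 48 for S12 relative to S10, where 0.328% of all features were called lower and 0.115% higher. For S16 relative to S12 it called 16, where 3.55% of all features were called lower and 1.49% higher. These counts are a description, and nothing is read from the difference. DN39791_c0_g1_i2 had a difference of steps of -12.28 on the log2 scale at S12, with no count in S12 stamens and 15.9 ± 5.22 CPM in S12 carpels (SD, n = 3), against 20.2 ± 12.9 CPM in S10 stamens and 4.44 ± 2.23 CPM in S10 carpels. DN46815_c0_g1_i1 had a difference of steps of -14.29 at S16, where its carpel level was higher and its stamen level lower than at S12. DN38027_c0_g1_i1 had 6.84, the only one of the 16 with the higher stamen step. The first of these values rests on a group without counts and the second on one of 3 counts, so their sizes depend on the prior count. No library of leaves or bracts stood apart by Dixon's criterion in the summed level of the features; groups of 3 libraries or fewer were not examined.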

How the results depend on the processing

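Leaving out the sparse libraries changed the number of the 48 called most: in stamens 24 at S12 and 35 at S16 relative to the stage before, in carpels 5 and 20, for the difference of steps 13 and 29, 1 for dorsal against lateral petals at S16 and 11 for sepals at S12. DESeq2 called 12 in stamens and 7 in carpels at S12, 6 in carpels at S16, 4 for dorsal against lateral petals at S16 and 1 for ans-lmi1 against ans. Of all features it called 1.70% and 1.05% at the carpel steps. The share was 10.3% for the petal types at S16 and 0.650% for ans-lmi1. No share of all features is given for the 12 in stamens or for the 1 between petal types without sparse libraries. None is given for the counts below either, so nothing is read from the size of any of these. Of 74 alternative counts, among them counts of features kept by the rule, 60 stayed within 1.5 times of the main count. The others are the sparse-library and DESeq2 counts above and the 25 features kept with the mean over stages in place of the highest. With 1 library left out at a time, counts ranged between 3 and 7 and between 15 and 17 at the stamen steps, 0 and 2 and 0 and 1 at the carpel steps, 3 and 6 and 11 and 17 for the difference of steps, 5 and 8 and 8 and 10 in petals, and 2 and 4 and 4 and 7 in sepals. They were 0 and 0 for dorsal against lateral petals at S10 and S12, 0 and 1 at S16, and 0 and 2 for ans-lmi1 against ans. The sepal count at S12 was 2 without any of 12 of its 18 libraries, and the S16 petal-type count was 1 without the third lateral library. With the replicate number as a block, 8 and 21 were called at the stamen steps and 0 and 1 at the carpel steps. The block gave 5 and 15 for the difference of steps, 8 and 10 in petals, 5 and 5 in sepals and 0 elsewhere. Outside the petal-type comparisons at S10 and S16, the lowest correlation of a pair lay between -0.27 and 0.12. Yet all pairs were positive at the S16 step in carpels (r between 0.08 and 0.24) and in sepals (between 0.07 and 0.31). They were also positive for the petal types at S12 (between 0.02 and 0.27) and the silencing libraries (0.12). Of the 48 features, the rule kept 25 with the mean over stages in place of the highest, 40 with means in place of medians, 32 with TMM scaling, 35 without sparse libraries, between 26 (without replicate 1 or 2) and 41 without 1 replicate, and 34 without S9, an alternative chosen after seeing the data. Of 202 alternatives for single named features, 196 kept direction and call, 6 lost the call and 0 reversed. Sparse libraries and stages with 2 libraries limit what low levels show.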
